A study of Homo sapiens with 6 samples.

Results

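The genes described here are 50 genes of protein folding in the endoplasmic reticulum (ER) and of the unfolded protein response (UPR), out of 60612 Ensembl gene identifiers counted in each library. They were chosen by name, as ER chaperones, disulphide isomerases, ER-associated degradation (ERAD) factors, translocon subunits and UPR sensors and transcription factors. The choice was made with earlier results of these data known, so shares of members set beside those of all genes are descriptions. All 50 symbols matched an identifier, and 49 had enough counts to be tested. DERL3, an ERAD membrane protein, was not tested, with 0.0571, 0.0248 and 0 CPM (counts scaled to the same library total) in the trastuzumab libraries and 0, 0 and 0.0138 CPM in the parental libraries. RNA was sequenced from SKBR3 cells, a HER2-positive mammary epithelial cancer line, in 2 groups of 3 libraries. The trastuzumab group had been kept under rising concentrations of trastuzumab, a therapeutic antibody against HER2, for 30 weeks, and the parental group had received no treatment. The labels do not say whether the adapted cells were 1 clone or a population, or whether the drug was present when RNA was taken. The words "under trastuzumab" below name this group of libraries and do not mean that the drug was present. They name no separate cultures behind the replicates, and p-values therefore reflect no more than the spread of these libraries, technical spread included. The comparison asks how the levels of these RNAs differ in cells adapted to trastuzumab.

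Secreted and membrane proteins, HER2 among them, enter the ER through the Sec61 translocon and are folded there by chaperones of the Hsp70 and Hsp90 families, by the calnexin and calreticulin cycle, which reads sugars on the protein, and by disulphide isomerases. Proteins that fail to fold are passed back to the cytosol for destruction by ERAD. When unfolded proteins build up, the sensors IRE1 (gene ERN1), ATF6 and PERK (gene EIF2AK3) start the UPR. IRE1 splices the mRNA of XBP1, ATF6 is cut in the Golgi to release a transcription factor, and PERK slows translation and favours ATF4. Spliced XBP1 and cut ATF6 bind short elements in the promoters of chaperone and ERAD genes. Splicing, cleavage and phosphorylation are not visible in counts per gene, so the values below are RNA levels and not sensor activity.

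Library totals lay between 71015138 and 82857810 counts, and where a gene had no count its level could reach 0.0372 to 0.0428 CPM (3 counts, counting error only). No pair of libraries of a group agreed within sampling noise (chi-square divided by its degrees of freedom, 19.1 to 29.2). The 7 luminal mammary markers summed to 21009 to 22576 CPM in trastuzumab libraries and 18254 to 20002 CPM in parental libraries, but did not move together. The means of ERBB2 (11050 CPM under trastuzumab, 7925 CPM in parental libraries), KRT19 and GATA3 were higher under trastuzumab. Those of KRT8 (4916 and 5525 CPM), KRT18, EPCAM and FOXA1 were lower. The 6 fibroblast markers summed to 6.07 to 10.9 CPM under trastuzumab and 9.20 to 19.2 CPM in parental libraries, and the 4 adipocyte markers stayed below 1 CPM in every library, with 1 at 0 throughout. The 6 leukocyte markers summed to 42.7 to 49.1 CPM under trastuzumab and 14.8 to 17.3 CPM in parental libraries, nearly all of it CD68, and 4 of them, including the pan-leukocyte gene PTPRC, stayed below 1 CPM. The 4 endothelial markers summed to 79 to 86.0 CPM under trastuzumab and 28.6 to 31.7 CPM in parental libraries, nearly all of it CDH5, and 2 of them, including PECAM1, stayed below 1 CPM. The part of these markers in the results was not tested. In such bulk RNA, fewer cells of a type and less RNA per cell cannot be told apart.

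Together the ER folding genes took a smaller share of the RNA under trastuzumab, and HSPA5, HSP90B1 and CANX fell while ERP29, CREB3L4 and SSR2 rose. The members summed to 11589, 11648 and 11501 CPM in trastuzumab libraries, against 12745, 12601 and 12656 CPM in parental libraries. Every trastuzumab library lay below every parental one, and the difference between the group means was -1088 CPM, given as a description without a test. CANX alone made up -525 CPM of this difference, and without it the sums were 10725, 10830 and 10658 CPM under trastuzumab and 11351, 11229 and 11321 CPM in parental libraries. Of the 49 tested members, 33 (67.3%) passed edgeR's quasi-likelihood test at a Benjamini-Hochberg adjusted p below 0.05. They were 11 higher (22.4%) and 22 lower (44.9%), and the other 16 did not pass. Over all 17854 tested genes the same test called 49.3% in either direction, 23.9% higher and 25.4% lower. Most members are well expressed, and 48 of them averaged at least 10 CPM. Among all genes of at least 10 CPM 72.7% were called, 35.8% higher and 37% lower. In this fit the share of members called was thus not above that of genes of at least 10 CPM, while the share called lower was. This floor does not match levels, since members reach 1983 CPM (P4HB, mean under trastuzumab), and more genes were called above the floor than over all genes. The median log2 fold change (trastuzumab minus parental) was -0.085 over the members and -0.0057 over all tested genes. Only DNAJC10 (2.04% of members, against 7.78% of all genes) passed the test and changed at least 2-fold. The groups did not overlap in 38 members (77.6%), with trastuzumab above parental in 14 (28.6%) and below in 24 (49.0%), against 57.5%, 28.3% and 29.2% of all genes. The shares changed at least 2-fold and without overlap were not counted among genes of at least 10 CPM. The split of calls moved with scaling, to 6 higher and 24 lower with library totals alone and to 15 higher and 18 lower with upper quartile factors, and without parental replicate 2 the calls were 7 higher and 19 lower.

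Fold changes in these libraries went with the base composition of transcripts, and the members followed that trend. Over the 49 tested members the log2 fold change correlated with transcript GC content at a Spearman rho of 0.636 and a Pearson r of 0.642. Over 8696 protein-coding genes of at least 10 CPM rho was 0.703. These are descriptions across genes that share the same 6 libraries. Members had a median GC content of 46.2%, against 49.8% for these coding genes. All coding genes of at least 10 CPM were cut by GC content into 3 classes of equal size. Of the 22 members in the lowest class (up to 45.3%), 1 was called higher and 16 lower, with a median of -0.45, against -0.44 for all coding genes of that range. In the highest class (from 54.9%) 6 of 9 members were called higher and 1 lower, with a median of 0.14, against 0.33 for all. The 18 members of the middle class held 4 called higher and 5 lower, with a median of -0.0089, against -0.0018 for all. The shares of all coding genes called in each class were not counted, so nothing particular to the members is read from these counts. A second fit removed from each library a smooth trend on GC content and exonic length, and is called the corrected fit here. It removes a technical trend and a biological one alike, and which of them the trend is was not tested. With it rho was -0.075 over the members, and their median was -0.10, against -0.017 over all genes. It called 34 members (69.4%), 11 higher (22.4%) and 23 lower (46.9%). The corrected fit called 38.1% of all genes, 18.4% higher and 19.7% lower, and of genes of at least 10 CPM it called 56.5%, 26.8% higher and 29.6% lower. In this fit the shares of members called and called lower were above those of genes of at least 10 CPM, and the share called higher was below. These shares were not tested against each other, and levels were not matched beyond that floor. Nothing particular to the members is therefore read from them.

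**Figure D1:**
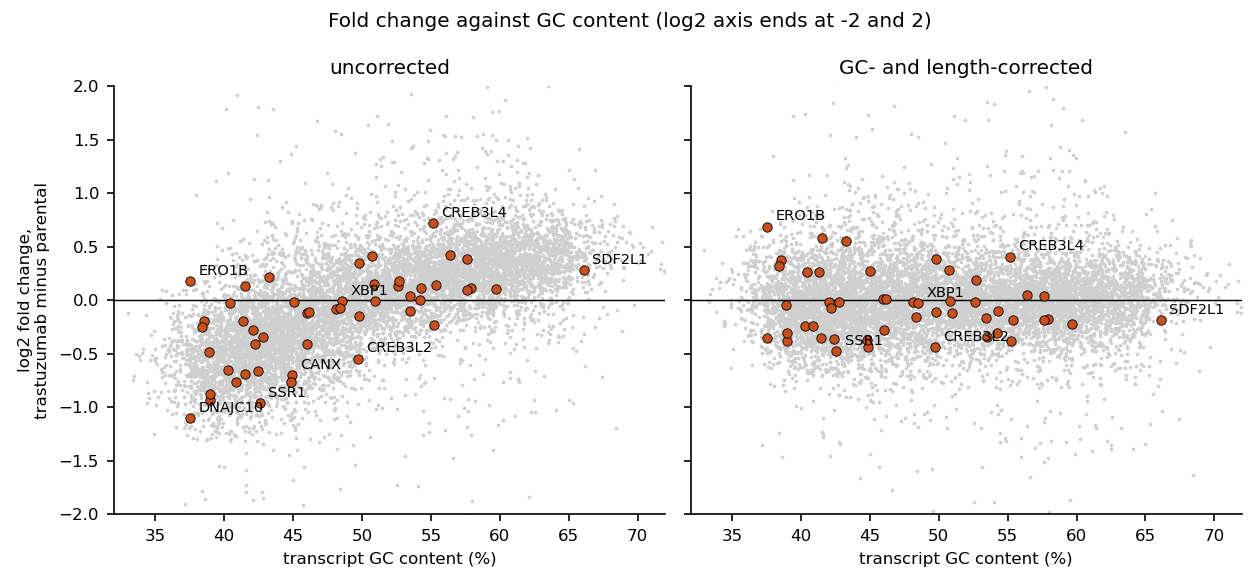
Log2 fold change (trastuzumab minus parental) against transcript GC content in percent, for all genes of at least 10 CPM (grey) and the 49 tested ER folding genes (orange), without (left) and with (right) correction for GC content and length. The members rise from left to right in the left panel (rho 0.636) and show no such slope in the right panel (rho -0.075).

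Both fits called 13 members lower (26.5%, against 13.9% of all genes and 20.1% of those of at least 10 CPM). They were HSPA5, HSP90B1, HYOU1, CANX, UGGT1, DNAJC3, DNAJC10, SEL1L, EDEM3, CREB3L2, SEC63, SSR1 and SSR3. Both fits called 4 members higher (8.16%, against 13.2% of all genes and 18.4% of those of at least 10 CPM), namely ERP29, DERL2, CREB3L4 and SSR2. These 17 members were 34.7% of the members. Called the same way in both fits were 27.1% of all genes and 38.6% of those of at least 10 CPM. The share of members was thus not above that of genes of at least 10 CPM. All of them but DERL2 were called in the same direction under all 22 settings tried. The fits disagreed in direction for 6 members (12.2%, against 2.32% of all genes). That share was not counted among genes of at least 10 CPM, so no comparison at that floor is made. SDF2L1, CALR, P4HB and OS9 passed as higher without the correction and as lower with it, while ATF6 and SEC62 passed as lower without it and as higher with it. Library totals alone ended the calls of CALR, P4HB, DERL2, OS9 and VCP, and upper quartile factors those of PDIA3, PDIA6, EDEM1 and ATF6, while the first added calls of PDIA4 and HERPUD1 as lower and the second of MANF, ERO1A, SYVN1 and ERN1. The calls of 10 members (20.4%) were lost with the correction, and 11 members (22.4%) passed only with it. MANF, PDIA5, HERPUD1, XBP1 and ERN1 (10.2%) passed in neither fit. The shares of all genes in these classes were not counted, so nothing particular to the members is read from them.

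**Figure D2:**
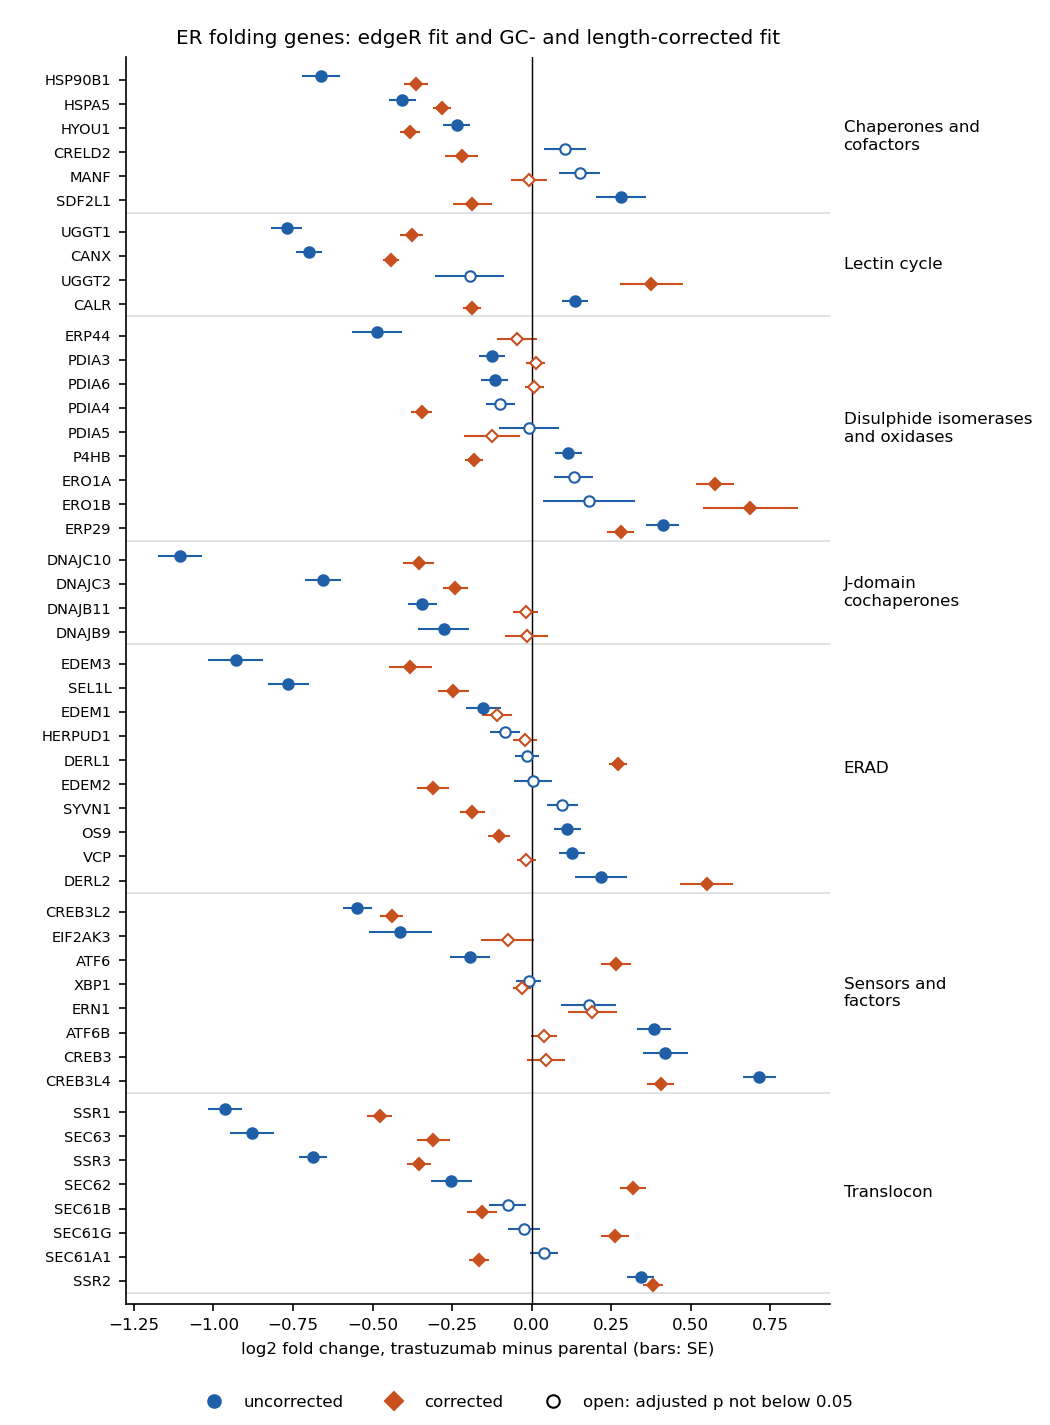
Log2 fold change (trastuzumab minus parental, bars SE) of the 49 tested ER folding genes by role, without correction (blue circles) and with correction for GC content and length (red diamonds). Open symbols did not pass an adjusted p below 0.05. DNAJC10 has the lowest uncorrected value (-1.11) and CREB3L4 the highest (0.72).

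The promoters of several of these genes carry the letters of known UPR elements, which are shown here because these elements define the classical targets among the members. Windows from 250 bases before to 50 bases after the start of each gene came from RefSeq on GRCh38.p14, and 47 of the 50 members matched one. A RefSeq start can lie inside the longer gene span given elsewhere, as for HSP90B1 and CANX. The ER stress response element (ERSE), which ATF6 binds together with the CCAAT factor NF-Y, was searched as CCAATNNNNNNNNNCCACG on both strands. It occurred in 8 members (HSPA5, HSP90B1, CRELD2, CALR, CANX, PDIA6, ERO1B and XBP1) and in 0.0916% of the 27305 genes with a window. The related ERSE-II, searched as ATTGG and CCACG with any 1 base between them, occurred in HYOU1, SDF2L1 and HERPUD1 and in 0.0696% of all genes. The UPR element bound by XBP1, TGACGTGG, which contains the core ACGTG, occurred in HYOU1, DNAJC10, VCP, SEC62 and SSR3 and in 0.927% of all genes. The core ACGTG by itself occurred in 29 members (61.7%) and in 24.9% of all genes. In the sequences below, written from 5′ to 3′ on the strand of the gene, capitals mark the matched elements in either orientation. In HYOU1 the UPR element overlaps the first of 2 ERSE-II copies, and HSP90B1 holds 2 ERSE copies.
HSPA5 (chr9:125241379-125241421, minus strand): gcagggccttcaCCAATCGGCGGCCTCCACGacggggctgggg
HSP90B1 (chr12:103930204-103930351, plus strand): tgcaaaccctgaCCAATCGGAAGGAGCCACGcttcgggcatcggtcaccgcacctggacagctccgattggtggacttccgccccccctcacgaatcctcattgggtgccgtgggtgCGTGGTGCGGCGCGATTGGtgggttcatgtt
CALR (chr19:12938372-12938414, plus strand): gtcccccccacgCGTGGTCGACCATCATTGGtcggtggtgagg
CANX (chr5:179698766-179698796, plus strand): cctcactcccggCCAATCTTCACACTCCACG
PDIA6 (chr2:10812841-10812883, minus strand): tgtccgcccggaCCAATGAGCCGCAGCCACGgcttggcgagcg
XBP1 (chr22:28800591-28800633, minus strand): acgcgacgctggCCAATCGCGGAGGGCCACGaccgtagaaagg
HYOU1 (chr11:119057262-119057405, minus strand): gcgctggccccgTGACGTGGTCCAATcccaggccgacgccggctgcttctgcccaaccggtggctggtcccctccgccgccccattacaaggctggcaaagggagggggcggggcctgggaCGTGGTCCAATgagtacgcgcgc
SDF2L1 (chr22:21642102-21642136, plus strand): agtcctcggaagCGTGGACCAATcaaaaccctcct
HERPUD1 (chr16:56932013-56932047, plus strand): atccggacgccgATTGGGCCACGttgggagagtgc
DNAJC10 (chr2:182716120-182716151, plus strand): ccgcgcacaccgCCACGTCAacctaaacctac
SEC62 (chr3:169966778-169966806, plus strand): cccctcctcgctCCACGTCAgagggaacc
SSR3 (chr3:156554147-156554178, minus strand): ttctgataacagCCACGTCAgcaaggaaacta
Genes with the same element did not all share a direction, and several calls differed between the fits. Of the 8 members with an ERSE, 1 was called higher, 4 lower and 3 did not pass, and their median log2 fold change was -0.063, against -0.085 over the other matched members. With the correction these medians were -0.20 and -0.10. CALR, the 1 called higher, then passed as lower, as did CRELD2, while ERO1B passed as higher and PDIA6 lost its call. The 3 members with an ERSE-II were 1 called higher (SDF2L1), 1 lower (HYOU1) and 1 that did not pass (HERPUD1). With the correction SDF2L1 passed as lower too. Of the 5 with a UPR element, 4 were called lower and VCP higher. With the correction SEC62 passed as higher and VCP did not pass, while HYOU1, DNAJC10 and SSR3 stayed lower. Medians were -0.25 with a UPR element and -0.050 without (-0.35 and -0.11 with the correction). A match of letters is not a test of binding.

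Among the chaperones of the Hsp70 and Hsp90 families and their helpers, 3 of 6 fell, 1 rose and 2 stayed short of the threshold. Their median log2 fold change was -0.066 (-0.25 with the correction). HSPA5 (BiP, ENSG00000044574, chromosome 9, 125234853 to 125241330 on hg38), the Hsp70 of the ER lumen and the usual marker of the UPR, had 459.7, 444 and 456 CPM in trastuzumab libraries, against 616, 610.4 and 577 CPM in parental libraries. HSP90B1 (GRP94, ENSG00000166598, chromosome 12, 103930107 to 103953645), the Hsp90 of the ER, had 355, 327 and 333 CPM under trastuzumab and 583, 538 and 486 CPM in parental libraries. For both genes all trastuzumab libraries lay below all parental ones. HSPA5 fell by 24.6% (log2 fold change -0.41 ± 0.042 SE, edgeR adjusted p = 6.05e-07), and its corrected value was -0.28 ± 0.029 (edgeR adjusted p = 1.1e-06). HSP90B1 fell by 36.9% (-0.66 ± 0.060, edgeR adjusted p = 4.22e-07; corrected -0.36 ± 0.038). HYOU1 (GRP170), a large Hsp70 relative that exchanges the nucleotide of BiP, had 447, 438 and 423 CPM in trastuzumab libraries and 496, 510.5 and 533 CPM in parental libraries. It fell by 15.1%, again with no overlap (-0.24 ± 0.043, edgeR adjusted p = 0.000226), and its corrected value was larger in size (-0.38 ± 0.031). Its transcript has a GC content of 55.2%, against 46% for HSPA5 and 42.4% for HSP90B1.

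SDF2L1, which works with BiP in the lumen, is the member with the highest GC content (66.1%). It had 36, 39 and 35.3 CPM under trastuzumab and 27.4, 31.2 and 32.2 CPM in parental libraries, with every trastuzumab library higher. It passed as higher without the correction (0.28 ± 0.079, edgeR adjusted p = 0.00693) and as lower with it (-0.19 ± 0.061, edgeR adjusted p = 0.0233), so its direction depended on the correction. The secreted ER stress proteins MANF and CRELD2 did not pass. MANF averaged 42.4 ± 0.581 CPM under trastuzumab and 38.2 ± 1.16 CPM in parental libraries (SD, n = 3 each; edgeR adjusted p = 0.0648), without overlap, and CRELD2 averaged 57.2 ± 0.596 and 53.3 ± 4.58 CPM (edgeR adjusted p = 0.219). Both passed as higher once parental replicate 3 was left out (edgeR adjusted p = 0.0414 for MANF and 0.0215 for CRELD2), and MANF also with DESeq2 (adjusted p = 0.0346). With the correction CRELD2 passed as lower (-0.22 ± 0.052), while MANF stood at -0.0080 ± 0.056.

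In the lectin cycle the membrane-bound lectin calnexin and the glycoprotein sensor UGGT1 fell, while calreticulin, the soluble partner of calnexin, was slightly higher before correction and lower after it. CANX (ENSG00000127022, chromosome 5, 179678628 to 179730925) had 864, 818 and 843 CPM under trastuzumab and 1394, 1372 and 1335 CPM in parental libraries. It fell by 38.4%, the largest loss in counts of any member (-0.70 ± 0.040, edgeR adjusted p = 8.93e-10; corrected -0.44 ± 0.025). UGGT1 (ENSG00000136731, chromosome 2, 128091200 to 128195677), which puts a glucose back on misfolded glycoproteins so that they bind calnexin again, had 119.8, 108 and 116 CPM under trastuzumab and 197, 194 and 195 CPM in parental libraries. Its groups lay far apart, and it fell by 41.3% (-0.77 ± 0.049, edgeR adjusted p = 2.68e-09; corrected -0.38 ± 0.036). CALR had 720.0, 767 and 748 CPM in trastuzumab libraries, against 667, 679.9 and 686 CPM in parental libraries. It passed as slightly higher without the correction (0.14 ± 0.040, edgeR adjusted p = 0.00997), and as lower with it (-0.19 ± 0.028, edgeR adjusted p = 5.83e-05). UGGT2, the less abundant relative of UGGT1, averaged 14.4 ± 0.707 CPM under trastuzumab and 16.5 ± 2.4 CPM in parental libraries (edgeR adjusted p = 0.159). Its groups overlapped. It passed as lower without parental replicate 2 (edgeR adjusted p = 0.0255) and as higher with the correction (0.38 ± 0.099).

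**Figure D3:**
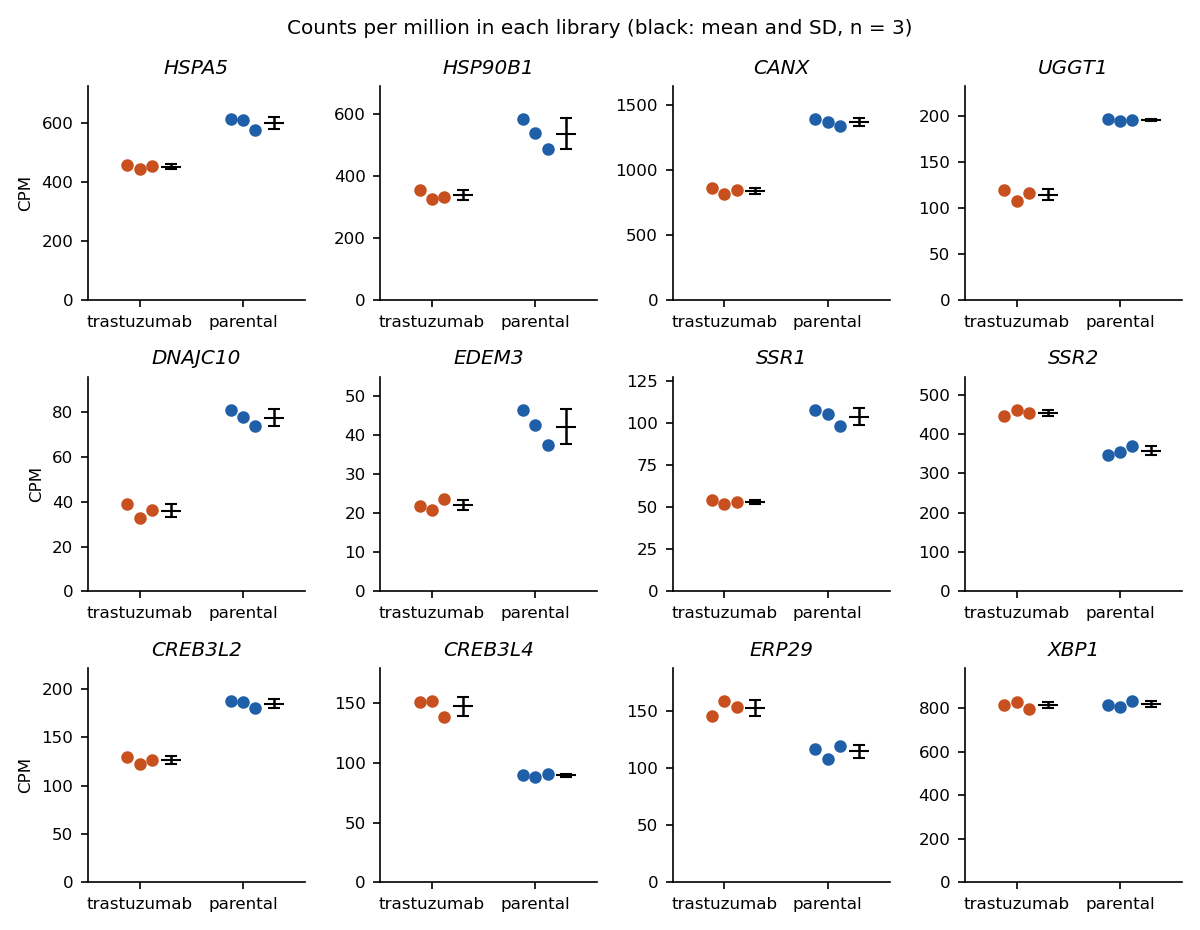
CPM of 12 ER folding genes in each trastuzumab (orange) and parental (blue) library, on axes that start at 0, with the mean and SD of each group in black (n = 3). The genes were picked for display, and all but XBP1 are members called the same way in both fits. In 11 of the 12 genes the 2 groups do not overlap, and in XBP1 they do, a count that follows from the choice. Without overlap were 77.6% of the tested members and 57.5% of all tested genes.

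Of the 9 disulphide isomerases and oxidases, 2 rose, 3 fell and 4 stayed short of the threshold. Their median was -0.0085 (0.0081 with the correction). ERP29, a redox-inactive relative of the isomerases that acts as an escort in secretion, had 145, 159 and 153 CPM under trastuzumab and 116, 108 and 119 CPM in parental libraries. All trastuzumab libraries lay above all parental ones, and it rose in both fits (0.41 ± 0.052, edgeR adjusted p = 5.39e-06; corrected 0.28 ± 0.042). ERP44, which holds ERO1 oxidases and unassembled secretory proteins in the early secretory pathway, had 32.7, 29.4 and 33.7 CPM under trastuzumab and 49, 41.9 and 43.3 CPM in parental libraries. It fell without overlap (-0.49 ± 0.079, edgeR adjusted p = 7.49e-05), but its transcript is poor in GC (38.9%) and the call was lost with the correction (-0.047 ± 0.063, edgeR adjusted p = 0.62). PDIA3 (ERp57), the isomerase that works with calnexin and calreticulin, had 565, 575 and 579 CPM in trastuzumab libraries and 636, 636 and 601 CPM in parental libraries. PDIA6, an isomerase that binds BiP, had 416, 396 and 418 CPM under trastuzumab and 450.3, 452 and 431 CPM in parental libraries. Both differences were small (log2 -0.12 and -0.12), and both calls were lost with the correction (edgeR adjusted p = 0.786 and 0.871). The call of PDIA3 (edgeR adjusted p = 0.0184) was also lost without parental replicate 1 (0.0607) or 2 (0.0834) or trastuzumab replicate 1 (0.0792). That of PDIA6 (edgeR adjusted p = 0.0318) held only with all libraries or without parental replicate 3, and reached 0.136 without trastuzumab replicate 2.

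P4HB, the founding protein disulphide isomerase and the most abundant member per length, averaged 1983 ± 74.9 CPM under trastuzumab and 1832 ± 70.6 CPM in parental libraries. It passed as slightly higher without the correction (0.11 ± 0.042, edgeR adjusted p = 0.0327) and as lower with it (-0.18 ± 0.027). Leaving out parental replicate 1 or 2 or trastuzumab replicate 1 or 2 ended the uncorrected call (edgeR adjusted p = 0.0676 to 0.154). The other members of the group, PDIA4, PDIA5 and the oxidases ERO1A and ERO1B, which pass electrons from the isomerases to oxygen, did not pass without the correction, with log2 fold changes from -0.10 to 0.18. With the correction PDIA4 passed as lower (-0.35 ± 0.033), and both oxidases as higher, ERO1A at 0.58 ± 0.059 and ERO1B at 0.69 ± 0.15. Both oxidases have GC-poor transcripts (41.5% and 37.5%). ERO1B averaged only 5.85 ± 0.456 CPM under trastuzumab and 5.17 ± 0.258 CPM in parental libraries.

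All 4 J-domain cochaperones, which drive the ATPase of BiP, were called lower without the correction, with a median of -0.50 (-0.13 with it), and 2 of them with it. Their GC contents ran from 37.5% to 42.8%, within the lowest GC class, where all coding genes of at least 10 CPM had a median of -0.44. Of all genes of at least 10 CPM, 37% were called lower (29.6% with the correction). The part of GC content in these 4 calls was not tested. DNAJC10 (ERdj5, ENSG00000077232, chromosome 2, 182716041 to 182794464), which also reduces disulphides of ERAD substrates, had 38.9, 33 and 36.3 CPM under trastuzumab and 81.1, 77.9 and 73.8 CPM in parental libraries. It fell by 53.5%, the largest relative change of any tested member without the correction (-1.11 ± 0.069, edgeR adjusted p = 2.27e-09). Its GC content (37.5%) is among the lowest of the members, and its corrected value was -0.35 ± 0.049. DNAJC3 (p58IPK), a cochaperone of BiP that also inhibits PERK, had 88.3, 82.7 and 89.1 CPM under trastuzumab and 144, 139 and 126 CPM in parental libraries. It fell in both fits (-0.66 ± 0.056, edgeR adjusted p = 8.24e-08; corrected -0.24 ± 0.038). DNAJB11 (ERdj3) had 98, 98.2 and 98.7 CPM under trastuzumab and 124, 128 and 121 CPM in parental libraries, and DNAJB9 (ERdj4), a target of XBP1 that represses IRE1, had 22.3, 22 and 22.2 CPM under trastuzumab and 29.5, 25.3 and 25.7 CPM in parental libraries. Neither gene's groups overlapped, but both calls (-0.34 ± 0.047 and -0.28 ± 0.080) were lost with the correction (edgeR adjusted p = 0.762 and 0.888). That of DNAJB9 was also lost without parental replicate 1 (edgeR adjusted p = 0.0506).

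ERAD genes split, with 3 of 10 tested members lower, 3 higher and 4 not past the test, and a median of -0.0050 (-0.11 with the correction). SEL1L (ENSG00000071537, chromosome 14, 81471549 to 81533861), the scaffold of the Hrd1 ubiquitin ligase, had 50.8, 44.6 and 50.6 CPM under trastuzumab and 84.4, 86 and 77.6 CPM in parental libraries. EDEM3 (ENSG00000116406, chromosome 1, 184690231 to 184754913), a mannosidase that trims glycoproteins for degradation, had 21.8, 20.9 and 23.5 CPM under trastuzumab and 46.4, 42.4 and 37.4 CPM in parental libraries. In both genes the highest trastuzumab library lay well below the lowest parental one. SEL1L fell by 41.1% (-0.76 ± 0.065, edgeR adjusted p = 6.89e-08; corrected -0.25 ± 0.048) and EDEM3 by 47.5% (-0.93 ± 0.085, edgeR adjusted p = 1.65e-07; corrected -0.38 ± 0.067). The related EDEM1 had 69.7, 65.1 and 66.1 CPM under trastuzumab and 76.4, 76.2 and 70.6 CPM in parental libraries (-0.15 ± 0.055, edgeR adjusted p = 0.0314). With the correction EDEM1 stayed lower but did not pass (-0.11 ± 0.047, edgeR adjusted p = 0.0785), while with a correction for GC content alone it passed (-0.19, edgeR adjusted p = 0.0050). The uncorrected call of EDEM1 was lost without any 1 of parental replicates 1 and 2 and trastuzumab replicates 2 and 3 (0.101 to 0.118). DERL2, a derlin of the channel through which substrates leave, had 41, 44 and 42.6 CPM under trastuzumab and 38.3, 31.9 and 39.7 CPM in parental libraries. It rose in both fits (0.22 ± 0.081, edgeR adjusted p = 0.0359; corrected 0.55 ± 0.082), but without parental replicate 2 (edgeR adjusted p = 0.207), trastuzumab replicate 2 (0.115) or trastuzumab replicate 3 (0.0849) the uncorrected call was lost.

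The ATPase VCP, which pulls substrates into the cytosol, and the lectin OS9 were slightly higher without the correction. VCP averaged 522 ± 6.32 CPM under trastuzumab and 478 ± 11 CPM in parental libraries (0.13 ± 0.040, edgeR adjusted p = 0.0143; corrected -0.017 ± 0.029, not past the test), a call lost without parental replicate 2 (edgeR adjusted p = 0.0739) or trastuzumab replicate 1 (0.0652). OS9 averaged 257 ± 7.09 CPM under trastuzumab and 238 ± 5.95 CPM in parental libraries (0.11 ± 0.044, edgeR adjusted p = 0.0426). Its call was lost whichever library was left out (edgeR adjusted p = 0.05 to 0.135), and with the correction it passed as lower (-0.10 ± 0.034). HERPUD1, which recruits the ligase and is a common readout of the UPR, averaged 154 ± 6.09 CPM under trastuzumab and 163 ± 4.02 CPM in parental libraries with all trastuzumab libraries below the parental ones. It passed in neither fit (-0.085 ± 0.047, edgeR adjusted p = 0.154; corrected -0.020 ± 0.038), but with library totals alone HERPUD1 was called lower (edgeR adjusted p = 0.0169). The ligase SYVN1 (Hrd1), EDEM2 and DERL1 did not pass without the correction (log2 0.10, 0.0047 and -0.015). With it SYVN1 (-0.19) and EDEM2 (-0.31) passed as lower and DERL1 (0.27) as higher.

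Among the sensors and membrane-bound transcription factors, 3 of 8 rose, 3 fell and 2 stayed short of the threshold. Their median was 0.085 (0.042 with the correction). XBP1 (ENSG00000100219, chromosome 22, 28794555 to 28800597), among the most abundant members, had 813, 827 and 798 CPM under trastuzumab and 815, 804 and 834 CPM in parental libraries. These groups overlapped, and the gene passed in neither fit (-0.0094 ± 0.039, edgeR adjusted p = 0.873; corrected -0.031 ± 0.028). In the deposited FPKM all trastuzumab values lay below the parental ones, and limma on log2(FPKM + 1) with no filter called XBP1 lower (adjusted p = 0.0355). ERN1, which encodes IRE1, had 30.1, 31.4 and 34.5 CPM under trastuzumab and 26.1, 26.8 and 31.8 CPM in parental libraries, also with overlap (0.18 ± 0.087, edgeR adjusted p = 0.101). It passed as higher without parental replicate 3 (edgeR adjusted p = 0.0136). EIF2AK3, which encodes PERK, had 30.5, 26 and 30.7 CPM under trastuzumab and 41.2, 42.3 and 32.6 CPM in parental libraries. It was called lower (-0.41 ± 0.10, edgeR adjusted p = 0.00281), with parental replicate 3 close to the trastuzumab libraries, and lost that call with the correction (-0.076 ± 0.083).

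The ATF6 pair went opposite ways without the correction. ATF6 had 56.7, 50.2 and 52.3 CPM under trastuzumab and 63.2, 61.3 and 57.7 CPM in parental libraries. ATF6B, a close relative, had 86.6, 86.4 and 83.8 CPM under trastuzumab and 62.1, 67 and 67.7 CPM in parental libraries. ATF6 passed as lower (-0.19 ± 0.064, edgeR adjusted p = 0.0176) and ATF6B as higher (0.38 ± 0.053, edgeR adjusted p = 1.31e-05). They differ in GC content (41.3% and 57.6%), and with the correction ATF6 passed as higher (0.26 ± 0.047) and ATF6B did not pass (0.039 ± 0.041). The uncorrected call of ATF6 was also lost without parental replicate 1 (edgeR adjusted p = 0.0724) or 2 (0.0560) or trastuzumab replicate 2 (0.0914) or 3 (0.0662). ATF6B overlaps TNXB on the same strand.

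The factors of the CREB3 family, which are released from the ER membrane by cleavage as ATF6 is, include the 2 genes of this group called the same way in both fits, CREB3L4 and CREB3L2. CREB3L4 (ENSG00000143578, chromosome 1, 153967534 to 153974363), a family member best known from the prostate, had 151, 152 and 138 CPM under trastuzumab and 89.7, 88.3 and 90.7 CPM in parental libraries. It rose to 1.64 times the parental level, the highest uncorrected fold change among the tested members (0.72 ± 0.051, edgeR adjusted p = 9.67e-09). Its corrected value was 0.41 ± 0.042, below those of ERO1B, ERO1A and DERL2. CREB3L2 (ENSG00000182158, chromosome 7, 137874979 to 138002067), which drives a gene of ER exit in mouse cartilage, had 130.0, 122 and 127 CPM under trastuzumab and 188, 186 and 179.7 CPM in parental libraries. It fell by 31.6% (-0.55 ± 0.046, edgeR adjusted p = 6.31e-08), and with a GC content near the middle (49.7%) its corrected value stayed close (-0.44 ± 0.036). CREB3 had 42.4, 42.9 and 39.5 CPM under trastuzumab and 30.1, 30.5 and 32.7 CPM in parental libraries, without overlap (0.42 ± 0.071, edgeR adjusted p = 0.000104), and lost its call with the correction (0.046 ± 0.060).

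At the translocon 4 of 8 genes fell, 1 rose and 3 stayed short of the threshold. Their median was -0.16 in either fit. The subunits of the TRAP complex, which sits beside Sec61 and helps some signal sequences to enter, differed in direction. SSR1 (TRAP alpha, ENSG00000124783, chromosome 6, 7268306 to 7347446) had 54.3, 52 and 53.3 CPM under trastuzumab and 108, 105 and 98 CPM in parental libraries. SSR3 (TRAP gamma, ENSG00000114850, chromosome 3, 156540140 to 156555184) had 165, 168 and 159.6 CPM under trastuzumab and 269, 265 and 259 CPM in parental libraries. SSR2 (TRAP beta, ENSG00000163479, chromosome 1, 156009048 to 156020959) had 445, 462 and 454 CPM under trastuzumab and 348, 356 and 369.8 CPM in parental libraries. SSR1 and SSR3 were lower and SSR2 higher in every trastuzumab library than in any parental one. SSR1 fell by 48.7% (-0.96 ± 0.053, edgeR adjusted p = 6.66e-10; corrected -0.48 ± 0.039) and SSR3 by 37.9% (-0.69 ± 0.044, edgeR adjusted p = 2.91e-09; corrected -0.35 ± 0.037). SSR2 rose in both fits (0.34 ± 0.042, edgeR adjusted p = 3.83e-06; corrected 0.38 ± 0.032). The delta subunit SSR4, no member of the set and named after its values were seen, averaged 114 ± 3.93 CPM under trastuzumab and 91.1 ± 4.31 CPM in parental libraries. It passed as higher (0.33 ± 0.052, edgeR adjusted p = 5.64e-05) and stood at -0.023 ± 0.041 with the correction. Whether the subunits differ from each other was not tested.

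SEC63, the membrane J-domain protein that brings BiP to the channel, had 52, 49.3 and 46.5 CPM under trastuzumab and 101, 87.2 and 83.7 CPM in parental libraries. It fell by 45.6% with no overlap (-0.88 ± 0.070, edgeR adjusted p = 4.09e-08; corrected -0.31 ± 0.051). Its partner SEC62 averaged 78.2 ± 4.22 CPM under trastuzumab and 93.1 ± 8.38 CPM in parental libraries. It passed as lower without the correction (-0.25 ± 0.064, edgeR adjusted p = 0.00359) and as higher with it (0.32 ± 0.041). The 3 subunits of the Sec61 channel did not pass without the correction. SEC61A1 averaged 461 ± 9.38 CPM under trastuzumab and 449 ± 19.6 CPM in parental libraries, SEC61B 53 ± 1.37 and 55.8 ± 1.22 CPM, and SEC61G 86.8 ± 1.86 and 88.3 ± 2.33 CPM. Their corrected values were -0.16, -0.16 and 0.26, and all passed in that fit. With GC content alone as the correction SEC61B did not pass (-0.038, edgeR adjusted p = 0.603).

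Levels can be compared between genes only per length, for which the deposited FPKM values (fragments per length of gene and size of library) were used. P4HB led with 326 ± 12 FPKM under trastuzumab and 315 ± 8.86 FPKM in parental libraries (SD, n = 3 each), followed by XBP1 (230.4 ± 4.11 and 243 ± 2.39 FPKM) and CALR (236 ± 6.88 and 225 ± 1.95 FPKM). CANX came next with 104 ± 3.04 FPKM under trastuzumab and 177 ± 5.6 FPKM in parental libraries, then PDIA3 (117 ± 1.16 and 133 ± 5.73 FPKM) and HSPA5 (99.3 ± 1.94 and 138 ± 6.31 FPKM). The top of the order thus holds P4HB, the calnexin and calreticulin pair, their isomerase, BiP and XBP1. The sensors were far lower, with ATF6 at 5.79 ± 0.373 FPKM under trastuzumab and 6.96 ± 0.39 FPKM in parental libraries, EIF2AK3 at 4.56 ± 0.427 and 6.38 ± 0.931 FPKM and ERN1 at 2.52 ± 0.176 and 2.34 ± 0.229 FPKM. DNAJC10, the member with the lowest uncorrected log2 fold change, was among the least abundant (1.41 ± 0.12 FPKM under trastuzumab and 3.19 ± 0.181 FPKM in parental libraries).

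**Figure D4:**
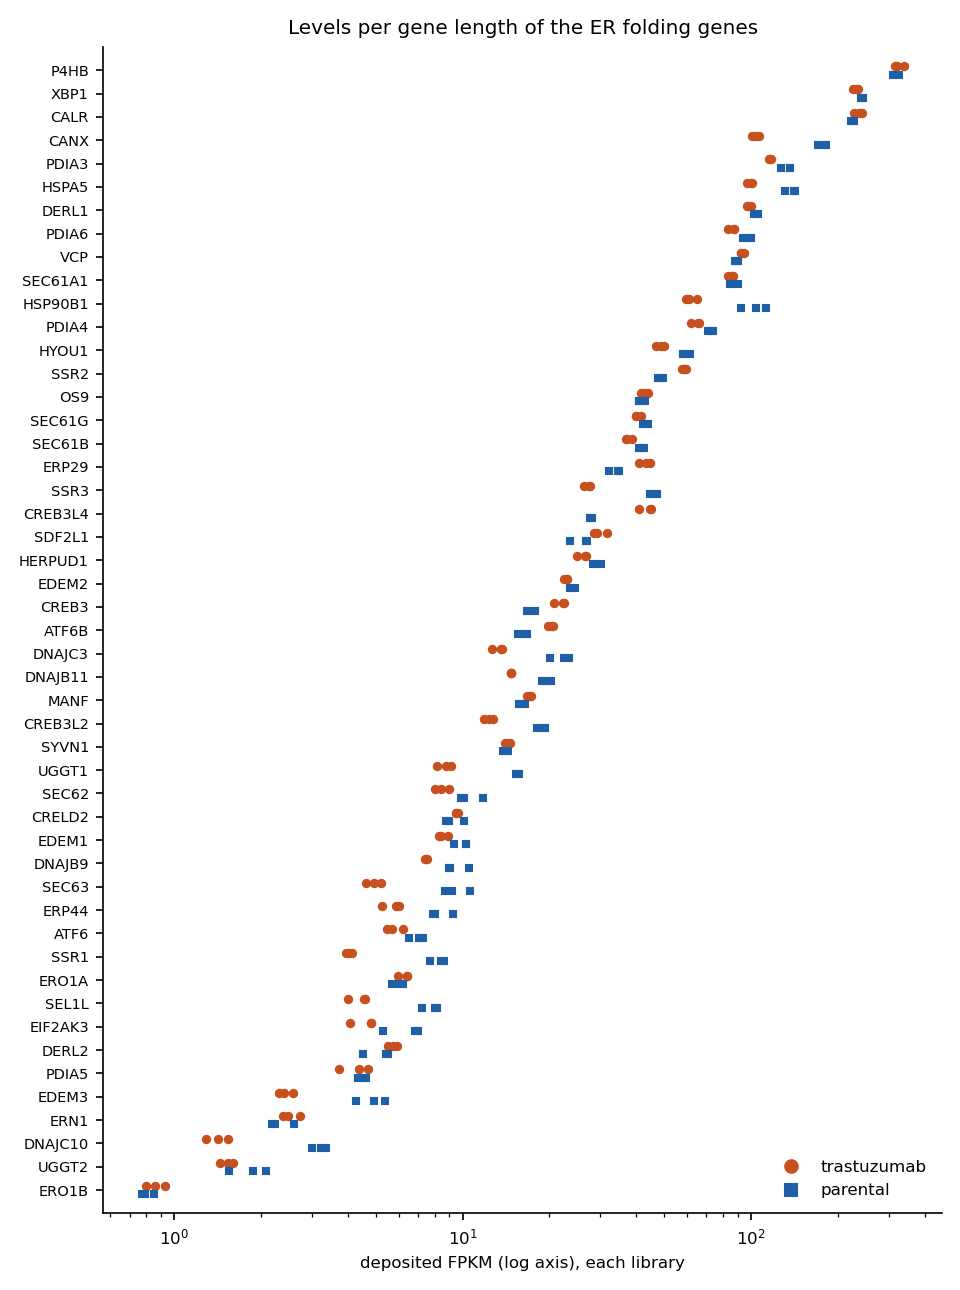
Deposited FPKM of the 49 tested ER folding genes in each trastuzumab (orange circles) and parental (blue squares) library on a log axis, ordered by mean level. Levels run from P4HB at the top to ERO1B at the bottom, and the spread between genes is far wider than the distance between the groups.

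A further 106 genes of the same pathway in 7 lists, of which 105 were tested, divided about evenly. They held 38 genes called higher (36.2%) and 37 lower (35.2%) without the correction, and 31 higher and 31 lower with it, against the shares over all genes given above. Of all genes of at least 10 CPM, 35.8% were called higher and 37% lower (26.8% and 29.6% with the correction). The counts per list are descriptions and were not tested against these shares. Among genes of the PERK and ATF4 branch, 4 of 10 rose and 3 fell. PPP1R15A (GADD34), the phosphatase subunit that reverses the block in translation, had 26.1, 26.3 and 25.2 CPM under trastuzumab and 12.3, 13.2 and 12.1 CPM in parental libraries. It rose in both fits (1.05 ± 0.084, edgeR adjusted p = 3.66e-08; corrected 0.68 ± 0.078), as did the stress factors ATF3 (0.59 ± 0.10, corrected 0.50 ± 0.097) and CEBPB (0.68 ± 0.048, corrected 0.25 ± 0.034). ATF4 itself, named with DDIT3 and TRIB3 after their values were seen, had 250.3, 258 and 258 CPM under trastuzumab and 350.0, 342 and 344 CPM in parental libraries. It fell in both fits (-0.43 ± 0.041, edgeR adjusted p = 2.34e-07; corrected -0.76 ± 0.034), and its target TRIB3 fell with 308 ± 12.1 CPM under trastuzumab against 356 ± 28.6 CPM in parental libraries (-0.21 ± 0.054, corrected -0.60 ± 0.035). DDIT3 (CHOP), the proapoptotic factor of the UPR, averaged 4.87 ± 0.58 CPM under trastuzumab and 3.72 ± 0.458 CPM in parental libraries, without overlap. It did not pass (0.39 ± 0.17, edgeR adjusted p = 0.0729; corrected 0.22 ± 0.17), but with upper quartile factors DDIT3 was called higher (edgeR adjusted p = 0.0417).

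Of 20 genes of ER exit, 11 were called lower, 3 higher and 6 did not pass (10 lower and 2 higher with the correction). Among all genes of at least 10 CPM 37% were called lower and 35.8% higher (29.6% and 26.8% with the correction). The list had a median of -0.19 (-0.098 with the correction) and a median GC content of 45.2%. The cargo adaptors of the COPII coat SEC24D (-1.02 ± 0.061, edgeR adjusted p = 1.6e-09), SEC24B (-0.93 ± 0.077) and SEC24A (-0.83 ± 0.089) fell in both fits, with corrected values of -0.63, -0.69 and -0.36. SEC24D averaged 50 ± 4.2 CPM under trastuzumab and 101 ± 1.89 CPM in parental libraries. Of 16 genes of signal recognition and cleavage, 8 were lower and 3 higher (4 and 4 with the correction). SRP72 of the signal recognition particle (-0.79 ± 0.075, corrected -0.29 ± 0.045), the signal peptidase subunit SPCS3 (-0.67 ± 0.066, corrected -0.17 ± 0.048) and the second Sec61 alpha gene SEC61A2 (-0.69 ± 0.13, corrected -0.54 ± 0.13) fell in both fits. Of 13 N-glycosylation genes 4 were higher and 4 lower (2 and 6 with the correction), and the oligosaccharyltransferase genes STT3B (-0.58 ± 0.050, corrected -0.33 ± 0.034), MAGT1 (-0.60 ± 0.056, corrected -0.26 ± 0.038) and OSTC (-0.48 ± 0.058, corrected -0.28 ± 0.044) fell in both.

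The lists of further folding and ERAD factors had medians above 0, at 0.20 and 0.19 (0.052 and 0.046 with the correction). Their median GC contents were 49.8% and 50.6%, above that of the ER exit genes. The part of GC content in these medians was not tested. Of 18 further folding factors 11 were higher and 3 lower (8 and 4 with the correction). For this and the next 2 lists, the shares of all genes of at least 10 CPM were 35.8% higher and 37% lower (26.8% and 29.6% with the correction). SDF2, the relative of SDF2L1, rose in both fits (0.54 ± 0.053, edgeR adjusted p = 3.49e-07; corrected 0.51 ± 0.044). CNPY3, a cochaperone of GRP94, rose only without the correction (0.50 ± 0.075, corrected 0.067 ± 0.064), and the membrane oxidoreductase TMX3 fell in both fits (-1.06 ± 0.082, corrected -0.48 ± 0.074). Of 18 further ERAD genes 9 were higher and 5 lower (7 and 3 with the correction). The VCP adaptor UBXN4 fell in both fits (-0.59 ± 0.079, corrected -0.22 ± 0.062). The protease RHBDD1 was called lower (-0.48 ± 0.15), but not with the correction (-0.22 ± 0.14) or without trastuzumab replicate 2 (edgeR adjusted p = 0.0673). Among 10 tested genes that process or partner the sensors, 4 were higher and 3 lower (4 and 1 with the correction). The family member CREB3L1 had 1.98, 2.83 and 2.28 CPM under trastuzumab and 1.12, 0.951 and 0.66 CPM in parental libraries, low but without overlap, and rose in both fits (1.37 ± 0.28, edgeR adjusted p = 0.000609; corrected 1.01 ± 0.28). The NF-Y subunit NFYA fell in both (-0.43 ± 0.088, corrected -0.35 ± 0.080), and the protease MBTPS2, which cuts ATF6, was lower without the correction (-0.70 ± 0.083) and not past the test with it (-0.17 ± 0.071). With GC content alone as the correction MBTPS2 stayed called as lower (-0.28, edgeR adjusted p = 0.0054).

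**Figure D5:**
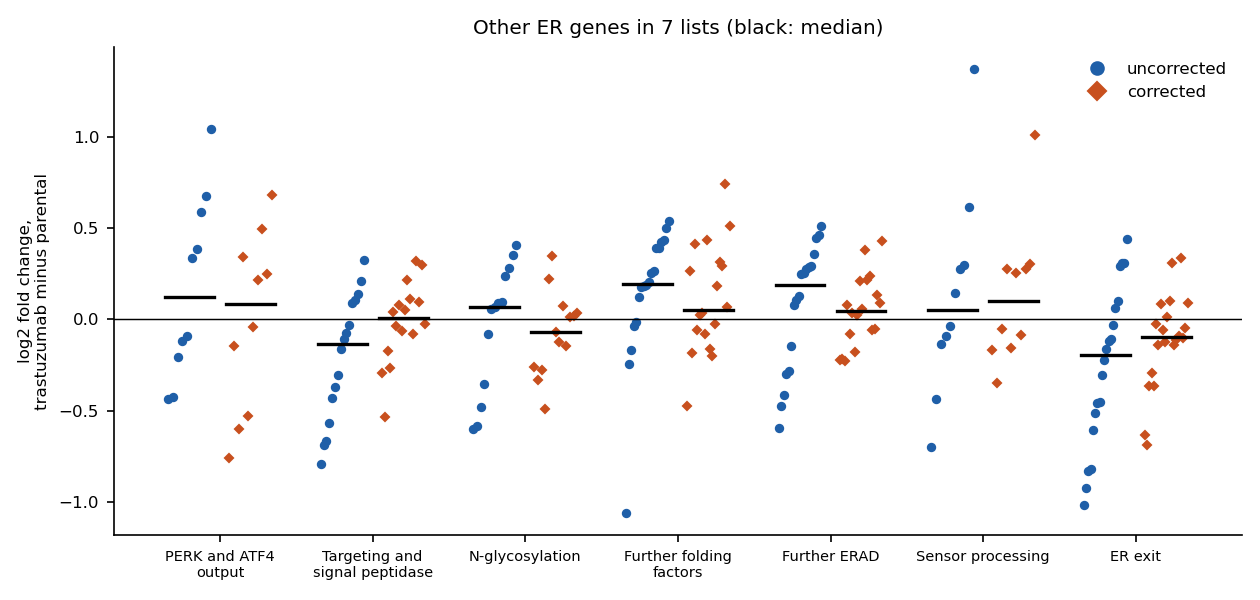
Log2 fold change (trastuzumab minus parental) of the 105 tested further ER genes in 7 lists, without correction (blue circles) and with correction for GC content and length (red diamonds), with the median of each list in black. Every list spans both directions, CREB3L1 stands highest (1.37) and TMX3 lowest (-1.06) without the correction.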

How the data were processed

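Total RNA of 6 SKBR3 libraries, 3 trastuzumab and 3 parental, was purified with an RNeasy kit and made into libraries with a directional NEBNext Ultra II kit, per the labels' protocols. The submitters' processing notes name STAR 2.4.2a as a tool and hg38 as the genome build. What counted the reads, with which strand setting and annotation, is not given in the sources used here. For 60612 identifiers the authors deposited unnormalized whole-number counts, and for 33686 of them also FPKM values. No value column was left unused, and every row names a gene.

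The members and lists were chosen with earlier results of these data known. Symbols were matched to Ensembl identifiers. GENCODE 29 gave positions, transcript GC content and exonic length. The count test was that of edgeR 4.0.16 under R 4.3.3 (filterByExpr, TMM factors, robust quasi-likelihood test of trastuzumab minus parental, Benjamini-Hochberg adjustment over 17854 genes, threshold 0.05). CPM use the TMM-scaled totals. The corrected fit removes from each library a spline (5 degrees of freedom) on GC content and exonic length through offsets. Values in each library are given for all tested sensors and factors and, in each other role, for the 4 largest changes among called members that reach 10 CPM, and 3 called genes that reach 1 CPM are named per further list, except 1 gene that is not reported here. Alternatives were other scaling factors and filters, DESeq2 1.42.0, limma 3.58.1 (voom, and log2(FPKM + 1) or log2(FPKM + 0.1) on genes of at least 1 FPKM in 3 libraries), a threshold of 0.01, coding genes alone, correction for GC content alone, the replicate number as a block and leaving out each library. The scripts were tested on simulated data. Another tested gene overlaps 21 of the members, on the same strand for 5 (PDIA5, HERPUD1, SYVN1, ATF6B and SSR1). Overlap was judged on whole gene spans, introns included, and shared exons were not looked for. Reads of shared exons may not be told apart in the counts, so these levels are uncertain to an unknown degree.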

Additional observations from a re-analysis of the deposited data

How the results depend on the processing

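The number of ER folding genes called changed (33) stayed between 25 and 35 over all settings, that called lower (22) between 17 and 25, and the number of all genes changed (8808) between 6427 and 8986. The number called higher (11) moved to 7 at an adjusted p below 0.01, to 6 with library totals alone and with limma on log2(FPKM + 1) or log2(FPKM + 0.1), and to 5 with limma on log2(FPKM + 1) with no filter. Leaving out each library gave 26 to 35 changed, 7 to 13 higher (7 without parental replicate 2), 17 to 22 lower and 7882 to 8689 for all genes changed. The median log2 fold change (-0.085, SD between libraries 0.0157) was -0.10 with the GC and length correction, -0.14 with library totals, -0.16 with either filtered FPKM fit, -0.15 with the unfiltered one, -0.032 with upper quartile factors and -0.10 to -0.061 with a library left out. The cause was not tested. Depth did not limit the members other than DERL3.

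The deviations of same-numbered libraries correlated at 0.213, -0.0200 and 0.0013, and those of trastuzumab replicate 2 and parental replicate 3 at 0.223. With 3 libraries per group such values depend on each other, so they cannot show whether the numbers pair the samples. With the replicate number as a block, 30 members changed, 9 higher and 21 lower, with a median of -0.085, and -0.10 with the block and the correction together.

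Members past the uncorrected test changed sign only under the corrections. Of those not past it, PDIA5, DERL1, XBP1 and SEC61G also changed sign with upper quartile factors, EDEM2 and SEC61A1 with library totals alone and the FPKM fits, PDIA5 and XBP1 with a minimum of 1 CPM in each group, and PDIA5, EDEM2 and XBP1 with a library left out. The log2 fold changes with correction for GC content and length, for GC content alone, and for both with the replicate block were -0.19, -0.11 and -0.19 for SDF2L1, -0.22, -0.25 and -0.22 for CRELD2, and -0.19, -0.13 and -0.19 for CALR. For UGGT2 they were 0.38, 0.29 and 0.38, for PDIA3 0.012, 0.040 and 0.013, for PDIA6 0.0081, 0.039 and 0.0080, and for P4HB -0.18, -0.21 and -0.18. For SYVN1 they were -0.19, -0.23 and -0.19, for EDEM2 -0.31, -0.23 and -0.31, for DERL1 0.27, 0.20 and 0.27, for OS9 -0.10, -0.12 and -0.10, and for VCP -0.017, -0.048 and -0.017. For ATF6 they were 0.26, 0.18 and 0.26, for SEC61A1 -0.16, -0.17 and -0.16, for SEC61G 0.26, 0.39 and 0.26, for SEC62 0.32, 0.24 and 0.32, and for SSR4 -0.023, -0.036 and -0.023. Of the corrections, only that for GC content alone turned DNAJB9 (0.073).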
